A study of Mus musculus with 5 samples.

Results

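The genes described here are 50 that act in DNA replication and S phase, measured in EpH4 cells, a non-transformed mouse mammary epithelial line. They were chosen by name for what their proteins do, with earlier results of these data known. All 50 were listed and tested among the 12934 genes of the count table, of which 12483 passed the filter on low counts. Poly(A) RNA was sequenced from 3 sgControl and 2 sgMef2d libraries. The question was how loss of MEF2D, a transcription factor of the myocyte enhancer factor 2 family, changed gene expression in these cells. Every library came from EpH4 cells that carried lentiviral Cas9 and had been selected with blasticidin and then with puromycin. The sgControl cells carried a control guide, and the sgMef2d cells carried a guide against Mef2d. The study used 2 guides against Mef2d, and the labels do not say which guide a library carried or whether the replicates came from separate selections. The cell density at harvest is not given in the sources used here.

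A cell licenses its replication origins in G1 by loading the MCM helicase onto DNA, with the origin recognition complex, Cdc6 and Cdt1 as loaders. In S phase the loaded helicase is activated with Cdc45 and the GINS complex, and the polymerases, the PCNA clamp and the enzymes that make deoxynucleotides follow. Many of these genes are targets of E2F transcription factors, which are held back by the retinoblastoma family until the cell commits to division.

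Few of the 50 replication genes passed the test, and most had a small positive difference. Of the 50, 44 had a positive log2 fold change (sgMef2d minus sgControl) and 6 a negative one, and the median was 0.08, against 0.0031 over all genes tested. Past an adjusted p of 0.05 in edgeR's quasi-likelihood test, 4 replication genes rose and 0 fell. The 4 that rose were E2f2, a transcription factor of the E2F family, and Tk1, Dut and Tyms, which encode enzymes of thymidine nucleotide supply. They made up 8.0% of the replication genes, while 3.67% of all genes tested were called higher and 4.28% lower. At an unadjusted p under 0.05, 10 replication genes were higher and 0 lower, against 11.2% and 12.0% of all genes. DESeq2 called 3 replication genes higher.

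Depth was between 13601145 and 20498563 counts per library, and a replication gene had between 189 and 8024 counts in a library. Levels are given as CPM, the count of a gene scaled to its library's size, in the order of the replicate numbers. Summed over the 50 genes, the sgControl libraries reached 6363, 6194 and 6244 CPM. The sgMef2d libraries reached 6612 and 6644 CPM. Both sgMef2d sums lay above every sgControl sum, and the sgMef2d mean was 5.76% higher (6628 ± 22.5 CPM, SD, n = 2, against 6267 ± 86.8 CPM, SD, n = 3). In bulk RNA, a larger share of cells in S phase and more RNA of these genes per cell cannot be told apart. Both sgMef2d libraries lay above every sgControl library for 23 of the 50 genes (46.0%) and below for 1 gene, Wdhd1 (2.0%). Over all genes tested the shares were 20.6% above and 20.5% below.

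**Figure D1:**
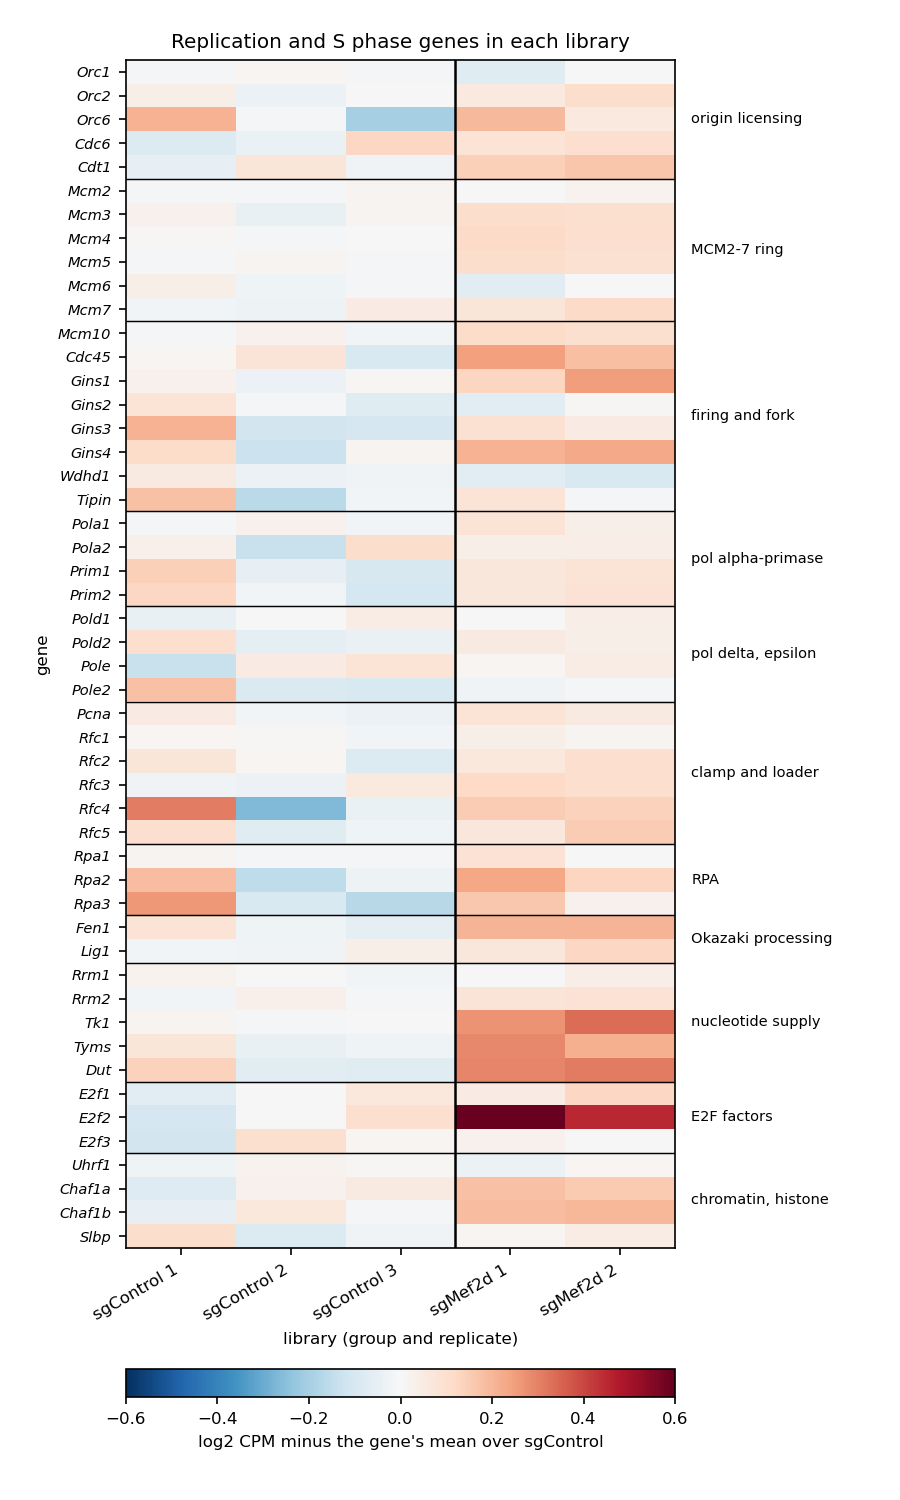
Colour shows the log2 CPM of each of the 50 replication genes (rows, grouped by role) in each library (columns) minus that gene's mean over the 3 sgControl libraries. The 2 sgMef2d columns are mostly on the positive side, and within sgControl replicate 1 some genes are as high as in the sgMef2d libraries.

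The sgControl libraries were not alike for these genes. Replicate 1 was the highest of the 3 sgControl libraries for 29 of the 50 genes and the lowest for 12. Over all genes it was the highest for 39.0% and the lowest for 39.5%. Without that library, 19 replication genes rose and 0 fell, against 14.6% and 14.8% of the genes then tested, and the median log2 fold change was 0.10. The 15 added genes were Mcm3, Mcm4, Mcm5, Orc6, Cdt1, Prim1, Cdc45, Gins4, Rfc4, Rfc5, Rpa2, Rpa3, Fen1, Chaf1a and Chaf1b. Without sgControl replicate 2 or replicate 3, 2 replication genes rose, E2f2 and Tk1, while 603 and 812 genes passed in all (992 with all libraries). Without sgMef2d replicate 1 or replicate 2, 1 library was left in that group and fewer genes passed in all. Most or all of the 4 calls were then lost, and the median log2 fold change was 0.08 and 0.07.

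The targeted gene did not separate the groups in these counts. Mef2d (chromosome 3) was at 64.3, 76.9 and 71.5 CPM in the sgControl libraries and at 64.2 and 65.8 CPM in the sgMef2d libraries. Its log2 fold change was -0.12 ± 0.080 (SE, adjusted p = 0.400, edgeR's quasi-likelihood test), and -0.19 with an adjusted p of 0.00550 without sgControl replicate 1. A guide-directed cut changes sequence at its site and need not lower the read count of the gene, so the labels could not be checked by this value. The epithelial label held for 7 of 8 epithelial markers, with Epcam, Cdh1 and Krt8 expressed, while Krt19 was not listed. Their summed level was 4190.2, 4018 and 4093 CPM in sgControl and 3822 and 3969 CPM in sgMef2d, so that both sgMef2d sums lay below every sgControl sum (5.0% lower on average). Of the 7, Cldn4 rose and Krt18 fell past the threshold. Of 8 fibroblast markers 6 were listed, with summed levels of 643, 730.2 and 767 CPM in sgControl and 608 and 649 CPM in sgMef2d. They did not move in the same direction, since Dcn and Col3a1 rose, at log2 fold changes of 1.23 and 1.45 and levels of at most 5.36 CPM, and the more abundant Col1a2 fell by 0.54. Thy1 and Lum were not listed. The part of the epithelial and fibroblast markers in the replication results was not tested. Endothelial markers were not listed (0 of 8), immune markers summed to at most 4.11 CPM (2 of 8 listed, Ptprc not among them), and of 8 adipocyte markers only Fabp4 was listed, at 1.18 to 3.80 CPM.

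E2f2 (ENSMUSG00000018983.9, GRCm38 chromosome 4, 136172394 to 136196057, plus strand) rose the most of the 50 genes. Its CPM were 24.0, 25.7 and 27.6 in sgControl and 38.8 and 35.2 in sgMef2d. Every sgMef2d value was above every sgControl value, and the gap between the groups was larger than the spread within either. The log2 fold change was 0.53 ± 0.088 (SE), or 44.3% higher with a 95% interval from 26.2% to 64.9% (adjusted p = 0.00389, edgeR's quasi-likelihood test). Without sgMef2d replicate 1, which held the higher sgMef2d value, the adjusted p was 0.0960.

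The other activating E2F factors, E2f1 and E2f3, did not pass the test. E2f1 was at 89.2, 93.3 and 97.5 CPM in sgControl and at 96.4 and 101.6 CPM in sgMef2d, so that the groups overlapped (log2 fold change 0.09 ± 0.064, SE, adjusted p = 0.466). E2f3 had a log2 fold change of 0.01 ± 0.074 (SE). Per kilobase of exon, E2f2 was the lowest of the 3 in sgControl, with 5.28 ± 0.366 RPKM (CPM per kilobase of exon, SD, n = 3) against 29.6 ± 1.32 for E2f1 and 11.1 ± 0.790 for E2f3.

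Sequences upstream of the RefSeq starts of the 4 genes that rose are shown because E2F words are frequent in promoters of the 50 genes. Of these 4, 3 hold none, as do 26 of the 42 replication genes with a window in the promoter table. They are read 5′ to 3′ on the strand of the gene, from the RefSeq promoter table (GRCm38.p6), without bases that GENCODE M21 places in an exon. Capitals mark the E2F words TTTCCCGC, TTTCGCGC, TTTGCCGC and TTTGGCGC and the CCAAT box, on either strand. For E2f2, a second stretch after its RefSeq start holds its E2F word, at position 40 from that start, which lies upstream of the GENCODE start. The Dut stretch lies inside the gene as GENCODE gives it, between the first exons of 2 of its transcripts.
E2f2, chr4:136172154-136172273, plus strand: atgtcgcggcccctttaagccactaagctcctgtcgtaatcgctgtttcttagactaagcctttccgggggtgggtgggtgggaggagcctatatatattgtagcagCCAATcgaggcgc
E2f2 site, chr4:136172296-136172323, plus strand: aatttggcggcatatagTTTGGCGCtaa
Tk1, chr11:117826093-117826212, minus strand: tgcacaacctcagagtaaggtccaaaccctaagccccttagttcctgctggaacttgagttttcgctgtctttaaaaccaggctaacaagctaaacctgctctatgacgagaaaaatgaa
Dut, chr2:125247402-125247481, plus strand: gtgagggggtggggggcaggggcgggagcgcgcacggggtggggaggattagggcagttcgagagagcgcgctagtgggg
Tyms, chr5:30073626-30073745, minus strand: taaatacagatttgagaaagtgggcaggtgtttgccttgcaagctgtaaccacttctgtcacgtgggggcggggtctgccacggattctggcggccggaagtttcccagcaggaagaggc

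For comparison, 2 subunits of the MCM helicase with several E2F words are shown. They were chosen after their sequences and values were seen. Mcm6 holds 3 such words, of which 2 overlap, and Mcm5 holds 2 that overlap.
Mcm6, chr1:128359706-128359825, minus strand: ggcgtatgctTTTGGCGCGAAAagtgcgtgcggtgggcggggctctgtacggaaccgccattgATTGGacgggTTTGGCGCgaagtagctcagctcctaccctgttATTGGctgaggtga
Mcm5, chr8:75109329-75109508, plus strand: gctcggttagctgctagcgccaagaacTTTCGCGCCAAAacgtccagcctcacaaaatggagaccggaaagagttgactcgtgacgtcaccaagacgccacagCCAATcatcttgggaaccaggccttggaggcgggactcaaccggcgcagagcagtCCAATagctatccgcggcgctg

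The promoter table held a window for 42 of the 50 genes, from 250 bases before to 50 bases after the RefSeq start, with 51 windows in all. An E2F word was found in 16 of the 51 windows (31.4%), against 2.26% of all 32851 windows in the table. By gene the share was 38.1% of the 42 replication genes and 4.91% of the 9573 listed genes with a window. The CCAAT box was in 60.8% of the windows of replication genes and in 37.4% of all windows. The MEF2 binding motif, searched on both strands, was in 0 of the 51 windows, in 3.19% of all windows and in 1.55% of the windows of listed genes, which says only that these letters were not in these windows.

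The log2 fold changes were set beside the presence of an E2F word, as a description. The 16 genes with a word had a median of 0.07 with 12 positive, the 26 without had a median of 0.08 with 25 positive, and the 8 with no window had a median of 0.07. Mcm6, with 3 words, had a log2 fold change of -0.03, while Mcm5 had 0.10. Tk1, Dut and Tyms held no E2F word in the window, and nor did E2f1 or Pcna. This says only that these exact words were not in these windows.

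Nucleotide supply was the role with the highest median log2 fold change, 0.25, with 3 of its 5 genes past the threshold (3.67% of all genes were called higher). A list of 9 further nucleotide supply genes had a median of 0.06, with 6 positive, 3 negative and 1 past the threshold. The summed level of the 5 was 866, 839 and 833 CPM in sgControl and 922 and 936 CPM in sgMef2d, 9.83% higher on average. Tk1 (chromosome 11, 117815526 to 117826092, minus strand) encodes the cytosolic thymidine kinase of the salvage pathway. It was at 119, 117 and 118 CPM in sgControl and at 142 and 149 CPM in sgMef2d. The sgControl values lay close together and both sgMef2d values stood above them. The log2 fold change was 0.30 ± 0.057 (SE), or 23.4% higher with a 95% interval from 13.2% to 34.5% (adjusted p = 0.00762, edgeR's quasi-likelihood test). The adjusted p was 0.0882 without sgMef2d replicate 1 and 0.194 without sgMef2d replicate 2.

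Dut (chromosome 2, 125247190 to 125258608, plus strand) encodes the dUTPase that keeps uracil out of DNA and supplies dUMP for thymidylate synthesis. It was at 113, 98.4 and 97.8 CPM in sgControl and at 126 and 128 CPM in sgMef2d. The sgControl replicate 1 value was the nearest to the sgMef2d values but lay below both. The log2 fold change was 0.30 ± 0.073 (SE, 22.9% higher, 95% interval 9.96% to 37.3%, adjusted p = 0.0298). The adjusted p ranged from 2.62e-10 without sgControl replicate 1 to 0.291 without sgMef2d replicate 2, and was 0.120, 0.0774 and 0.220 without sgControl replicate 2, sgControl replicate 3 and sgMef2d replicate 1.

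Tyms (chromosome 5, 30058202 to 30073617, minus strand) encodes thymidylate synthase, which makes dTMP from dUMP. It was at 102, 93.7 and 94.9 CPM in sgControl and at 118 and 112 CPM in sgMef2d. The groups did not overlap. The log2 fold change was 0.25 ± 0.063 (SE, 18.9% higher, 95% interval 8.01% to 31.0%, adjusted p = 0.0344). This call was near the threshold, with an adjusted p of 0.0515 in DESeq2 and 9.78e-07 without sgControl replicate 1. Without sgControl replicates 2 and 3 and sgMef2d replicates 1 and 2 in turn, it was 0.142, 0.0880, 0.350 and 0.208.

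The subunits of ribonucleotide reductase, which makes deoxynucleotides from ribonucleotides, did not pass. Rrm2, the regulatory subunit of S phase, was at 146, 151 and 147 CPM in sgControl and at 156 and 157 CPM in sgMef2d. These groups did not overlap, with a log2 fold change of 0.08 ± 0.056 (SE, adjusted p = 0.426). Rrm1, the large subunit, had a log2 fold change of 0.02 ± 0.054 (SE).

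**Figure D2:**
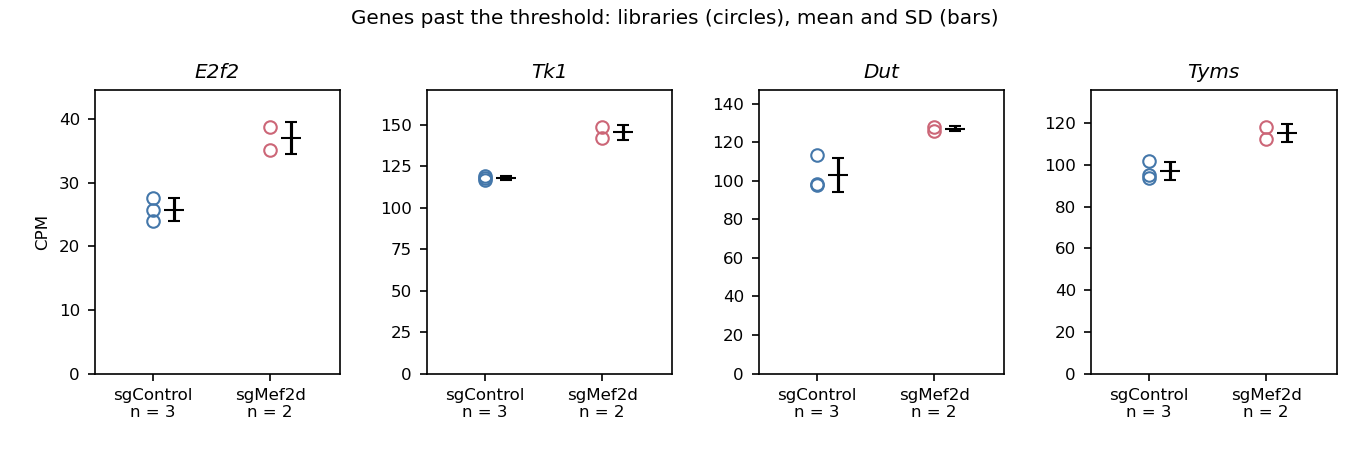
Each panel plots CPM for E2f2, Tk1, Dut or Tyms, with 1 point per library and a bar at the mean of each group with its SD. In all 4 genes the 2 sgMef2d points lie above the 3 sgControl points.

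In the licensing group, which marks origins in G1, 0 of 5 genes passed and the median log2 fold change was 0.09. Orc2, a subunit of the origin recognition complex, was at 141, 135 and 138 CPM in sgControl and at 143 and 148 CPM in sgMef2d (log2 fold change 0.08 ± 0.058, SE, adjusted p = 0.441). Cdt1, the loader of the MCM helicase, was at 97.4, 105.8 and 99.1 CPM in sgControl and at 111 and 113 CPM in sgMef2d. Both sgMef2d values were above all sgControl values, and the log2 fold change was 0.16 ± 0.062 (SE, adjusted p = 0.157, and 0.0349 without sgControl replicate 1). Cdc6, which loads MCM with Cdt1, and Orc6 had log2 fold changes of 0.09 and 0.11, and Orc1 of -0.04. Orc6 was at 63.7, 55.0 and 48.0 CPM in the sgControl libraries, a spread that held both sgMef2d values.

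The 6 subunits of the MCM helicase ring, Mcm2 to Mcm7, were among the most abundant of the 50 genes, and 0 of 6 passed. Mcm3 was at 391, 373 and 388 CPM in sgControl and at 414 and 411 CPM in sgMef2d (log2 fold change 0.10 ± 0.055, SE, adjusted p = 0.298, and 0.0107 without sgControl replicate 1). Mcm4 was at 228, 225 and 227 CPM in sgControl and at 245 and 243 CPM in sgMef2d (log2 fold change 0.11 ± 0.054, SE, adjusted p = 0.255, and 0.0243 without sgControl replicate 1). Neither gene overlapped between the groups, and nor did Mcm5 and Mcm7, with log2 fold changes of 0.10 and 0.09. In these 4 both sgMef2d values were above every sgControl value, as in 20.6% of all genes tested. The 2 other subunits did overlap, Mcm2 with 0.01 and Mcm6 with -0.03. Differences between subunits were not tested. Mcm7 shared 18.1% of its 50-base exon words with other genes, so reads from near copies may enter its count.

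Among the 8 genes of origin firing and fork progression, 0 passed and the median log2 fold change was 0.08. Cdc45, which joins the MCM ring in the active helicase, was at 50.5, 52.9 and 47.1 CPM in sgControl and at 59.4 and 56.7 CPM in sgMef2d. Both sgMef2d values lay above the sgControl values (log2 fold change 0.21 ± 0.073, SE, adjusted p = 0.105, and 0.00548 without sgControl replicate 1). The 4 GINS subunits, also parts of the active helicase, differed in value, with log2 fold changes of 0.19 for Gins1, -0.03 for Gins2, 0.05 for Gins3 and 0.21 for Gins4. Of the 4097 exon bases of Gins2, 2758 are overlapped by Gse1 on the opposite strand. Gins4 had an adjusted p of 0.154, and 0.00210 without sgControl replicate 1. Mcm10, a factor for helicase activation, had 0.10. Tipin, a fork protection factor, was at 97.7, 77.3 and 85.4 CPM in sgControl and at 91.3 and 86.1 CPM in sgMef2d, with the sgMef2d values inside the sgControl range (0.03 ± 0.089, SE, adjusted p = 0.890). Wdhd1, which links the helicase to polymerase alpha, had the lowest value of the 50 genes, -0.08 ± 0.076 (SE, adjusted p = 0.582).

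Of the 8 polymerase and primase genes, 0 passed. Prim1, the catalytic primase subunit, was at 76.0, 66.7 and 64.5 CPM in sgControl and at 72.3 and 73.0 CPM in sgMef2d (log2 fold change 0.07 ± 0.078, SE, adjusted p = 0.645, and 0.0394 without sgControl replicate 1). Its log2 fold change was 0.15 without sgControl replicate 1 and 0.02 without sgControl replicate 3. Pola1, the catalytic subunit of polymerase alpha, was at 133, 136 and 132 CPM against 142 and 137 CPM, with 0.06 ± 0.057 (SE, adjusted p = 0.586). Their partners Pola2 and Prim2 had log2 fold changes of 0.03 and 0.07. Pold2, an accessory subunit of the lagging-strand polymerase delta, was at 140.1, 126 and 127 CPM in sgControl and at 135 and 134 CPM in sgMef2d (0.04 ± 0.065, SE, adjusted p = 0.773). Pold1, Pole and Pole2, further subunits of polymerases delta and epsilon, had 0.02, 0.03 and -0.04.

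The clamp PCNA holds polymerases on DNA, and the RFC complex loads it. Of these 6 genes 0 passed. Pcna was at 254, 242 and 239 CPM in sgControl and at 259.6 and 254 CPM in sgMef2d, a narrow separation (log2 fold change 0.07 ± 0.056, SE, adjusted p = 0.528). Of its 50-base exon words 19.1% were shared with the pseudogene Pcna-ps2. Rfc3 was at 65.0, 64.4 and 68.8 CPM in sgControl and at 71.7 and 70.8 CPM in sgMef2d (0.11 ± 0.064, SE, adjusted p = 0.342). Rfc4 ran from 24.0 to 35.6 CPM over the sgControl libraries, the widest relative spread of the 50 genes there, and both of its sgMef2d values lay within that range. Rfc1, Rfc2 and Rfc5 had log2 fold changes of 0.02, 0.08 and 0.11.

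The RPA subunits coat single-stranded DNA at the fork, and 0 of 3 passed. Rpa1 was at 169, 167 and 166 CPM in sgControl and at 178 and 167 CPM in sgMef2d (log2 fold change 0.04 ± 0.057, SE, adjusted p = 0.691). Rpa2 was at 54.5, 43.0 and 46.8 CPM in sgControl and at 56.3 and 52.4 CPM in sgMef2d (0.17 ± 0.095, SE, adjusted p = 0.314, and 0.000453 without sgControl replicate 1). Its log2 fold change was 0.28 without sgControl replicate 1 and 0.098 without sgControl replicate 2. The sgControl replicate 1 value was between the sgMef2d values for Rpa2 and above both for Rpa3, which had a log2 fold change of 0.07.

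Both genes of Okazaki fragment processing, Fen1 and Lig1, were higher in each sgMef2d library than in any sgControl library, as were 20.6% of all genes tested, but neither passed. Fen1, the flap endonuclease, was at 128, 119 and 117 CPM in sgControl and at 139.8 and 139.7 CPM in sgMef2d. Its log2 fold change was 0.20 ± 0.062 (SE, 95% interval of the change 4.61% to 26.4%, adjusted p = 0.0748), and its adjusted p was 8.64e-06 without sgControl replicate 1. An exon of another gene on the opposite strand overlaps 1909 bases of Fen1, and the strand setting of the count is not given in the sources used here. Lig1, the ligase that joins the fragments, had 0.10 ± 0.057 (SE).

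Of the 4 genes for new chromatin, 0 passed. Chaf1b, a subunit of the histone chaperone CAF-1, was at 54.1, 58.6 and 55.6 CPM in sgControl and at 63.7 and 64.4 CPM in sgMef2d, with no overlap (log2 fold change 0.19 ± 0.066, SE, adjusted p = 0.107, and 0.0270 without sgControl replicate 1). Chaf1a, its partner, had 0.17 ± 0.060 (SE, adjusted p = 0.123), and 4648 of its exon bases are overlapped by a gene on the opposite strand. Uhrf1, which guides maintenance DNA methylation, was at 318, 329 and 326 CPM in sgControl and at 316 and 327 CPM in sgMef2d, so that the groups overlapped (-0.01 ± 0.055, SE, adjusted p = 0.931). Slbp, which binds the ends of replication-dependent histone mRNAs, had 0.03.

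**Figure D3:**
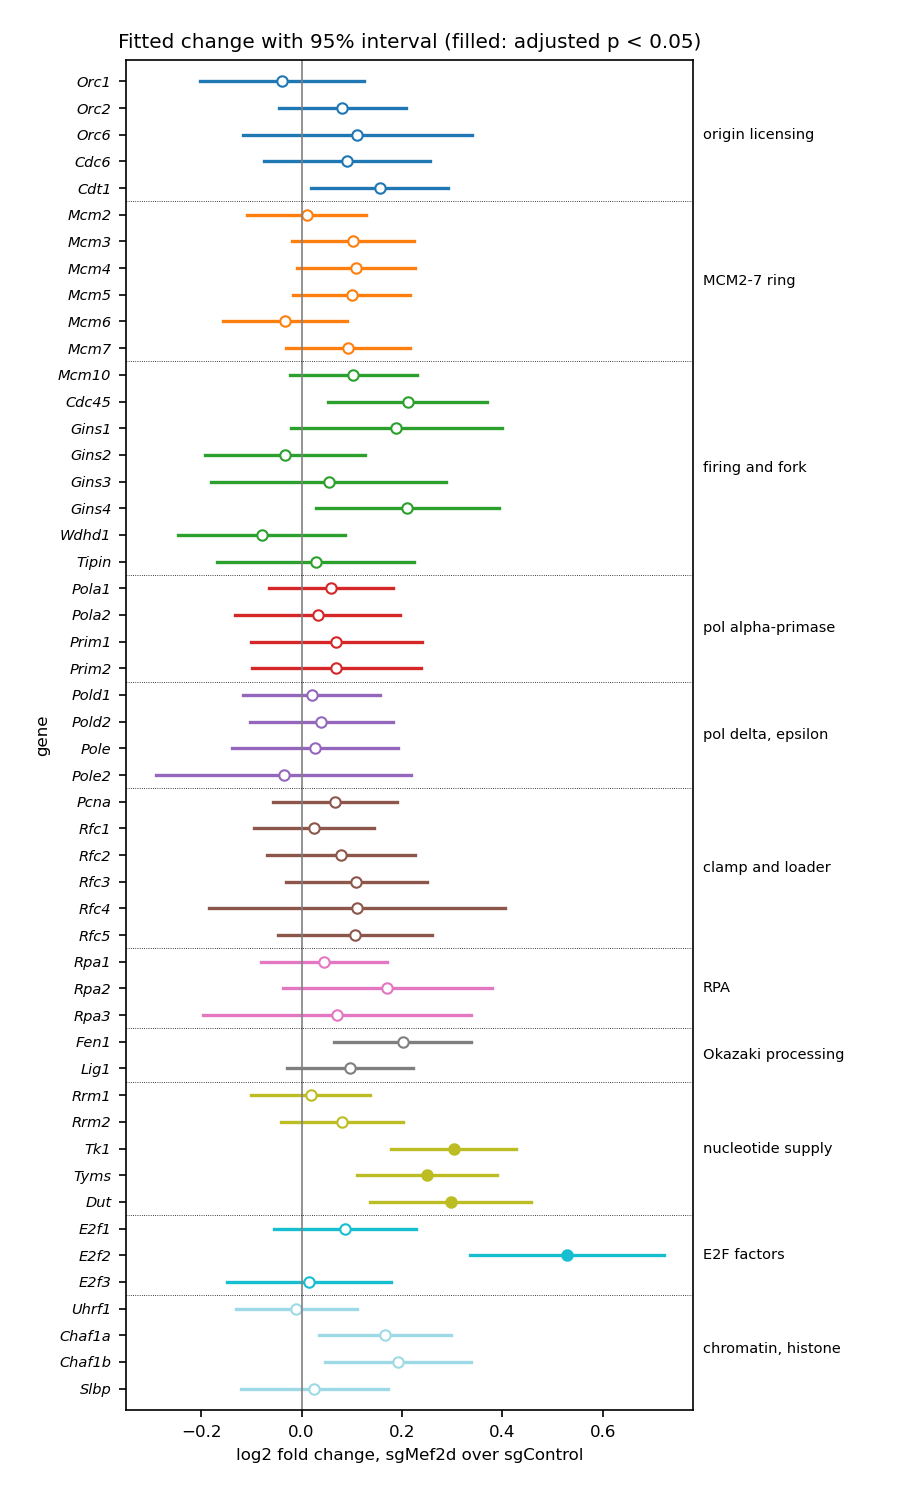
Points give the log2 fold change (sgMef2d minus sgControl) of each of the 50 genes with its 95% interval, ordered by role, with the 4 genes past an adjusted p of 0.05 marked. The interval lies above 0 for 10 of the 50 genes and includes 0 for the rest.

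Gene by gene, the differences and their errors were as follows. Of the 50 genes, 31 had an absolute log2 fold change under 0.1 and 7 had one of at least 0.2. For 37 of the 50 genes the 95% interval reached neither 0.3 nor -0.3. The distance from the estimate to either bound of the interval had a median of 0.14 and ran from 0.12 to 0.29.

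Per kilobase of exon, the order of the 50 genes in sgControl began with Mcm3 and Pcna, at 102 ± 2.67 and 102 ± 3.22 RPKM (SD, n = 3), which did not differ beyond their spread. Mcm5 followed at 87.3 ± 0.811 RPKM and Uhrf1 at 76.1 ± 1.23 RPKM. Pold2 was at 69.0 ± 4.24 RPKM and Mcm6 at 65.3 ± 1.52 RPKM, a difference within the SD of Pold2. The lowest were E2f2 at 5.28 ± 0.366 RPKM, Pole2 at 5.14 ± 0.561 RPKM and Wdhd1 at 4.67 ± 0.160 RPKM. Of these, E2f2 and Pole2 overlapped within their SD, and the Wdhd1 mean lay within the SD of Pole2.

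**Figure D4:**
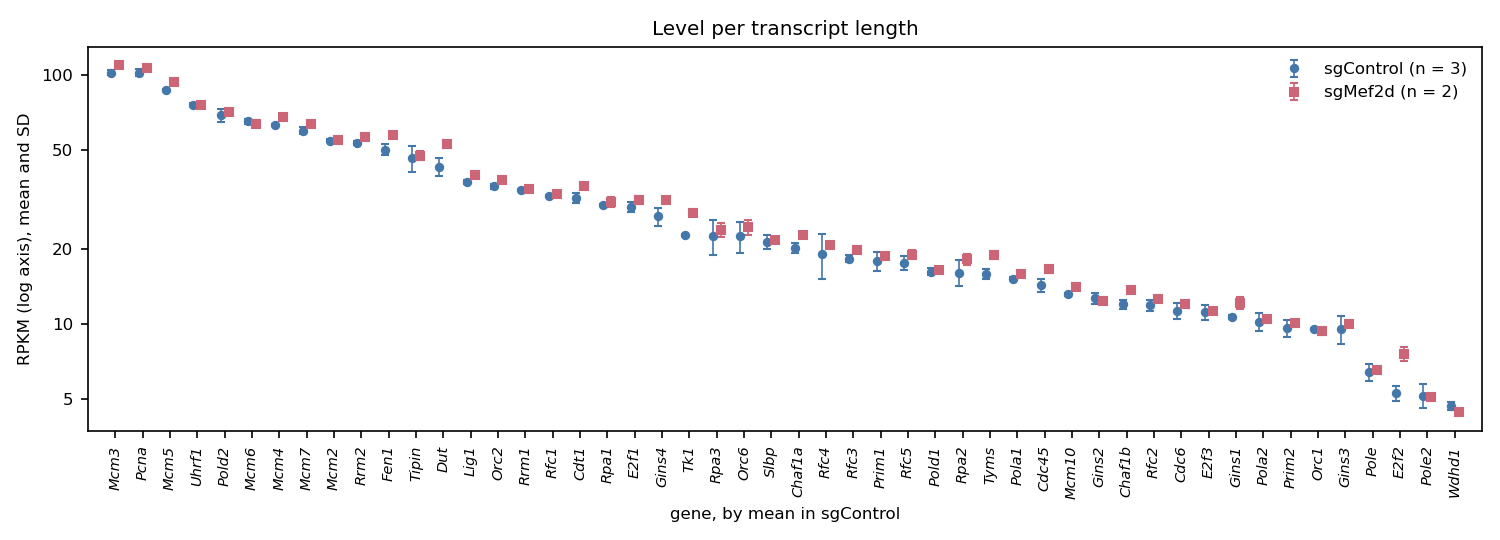
Mean RPKM of each of the 50 genes in sgControl (n = 3) and sgMef2d (n = 2), with SD bars, on a log axis and ordered by the sgControl level. The order runs from Mcm3 at 102 RPKM to Wdhd1 at 4.67 RPKM in sgControl.

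Outside the 50, 62 further replication genes were tested, among them other origin subunits, E2F partners and chromatin factors. Of these, 2 rose and 0 fell, 39 were positive, and the median log2 fold change was 0.04. The share called higher, 3.23%, was near the 3.67% of all genes tested. At an unadjusted p under 0.05, 8 were higher (12.9%, against 11.2% of all genes) and 3 lower. Dctpp1, which hydrolyses dCTP and modified relatives, was at 52.0, 50.5 and 45.7 CPM in sgControl and at 61.6 and 66.3 CPM in sgMef2d (log2 fold change 0.37 ± 0.076, SE, adjusted p = 0.0131). Recql4, a helicase needed at replication initiation, was at 31.2, 29.7 and 29.9 CPM in sgControl and at 36.6 and 41.0 CPM in sgMef2d (0.35 ± 0.080, SE, adjusted p = 0.0208). Neither call held without sgMef2d replicate 1 (adjusted p = 0.0846 and 0.0788) or sgMef2d replicate 2 (0.234 and 0.332), and that of Recql4 did not hold without sgControl replicate 2 (0.0744). Of 10 other E2F factors, their partners and pocket proteins, 0 passed, 3 were positive and 7 negative, and log2 fold changes ran from -0.27 for E2f5 to 0.19 for E2f8, both of which encode repressors of E2F targets.

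Of 30 mitotic genes, 4 rose (13.3%, against 3.67% of all genes) and 0 fell, 26 were positive and the median log2 fold change was 0.09, close to that of the replication genes. The 4 were Aurkb (log2 fold change 0.30, adjusted p = 0.00998), Plk1 (0.24, 0.0256), Aurka (0.24, 0.0328) and Cdc20 (0.22, 0.0344), which encode mitotic kinases and an activator of the anaphase-promoting complex. With the replicate number as a block, Aurka (adjusted p = 0.0916) and Cdc20 (0.0747) did not pass but Foxm1 did, for 3 in all. With a length and GC trend removed, Plk1 (0.0738) and Cdc20 (0.101) did not pass but Birc5, Cenpe and Foxm1 did, for 5 in all. Without sgControl replicate 2 or 3 only Aurkb passed of the 30, while 603 and 812 genes passed in all (992 with all libraries). Without sgControl replicate 1, 15 of the 30 did (14.6% of all genes then rose). Without sgMef2d replicate 1 or 2, fewer genes passed in all and the 4 calls did not hold. The log2 fold change of Aurkb was then 0.31 and 0.27. Of 13 tested regulators of G1, 2 rose (15.4%, against 3.67% of all genes) and 1 fell (4.28% of all genes fell). Cdkn1a, the CDK inhibitor p21, was at 46.5, 46.6 and 44.3 CPM in sgControl and at 65.6 and 65.3 CPM in sgMef2d (0.52, adjusted p = 0.000788). Cdkn1b, the CDK inhibitor p27, was at 275, 269.7 and 270.4 CPM in sgControl and at 212 and 214 CPM in sgMef2d (-0.35, adjusted p = 0.00254). Ccnd2, a D-type cyclin, rose by 2.08 on the log2 scale (adjusted p = 0.00325) from 10, 6 and 7 counts to 33 and 32. The call of Cdkn1b did not hold without sgMef2d replicate 1 or 2 (adjusted p = 0.0774 and 0.0730), nor that of Ccnd2 without sgMef2d replicate 2 (0.0544).

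**Figure D5:**
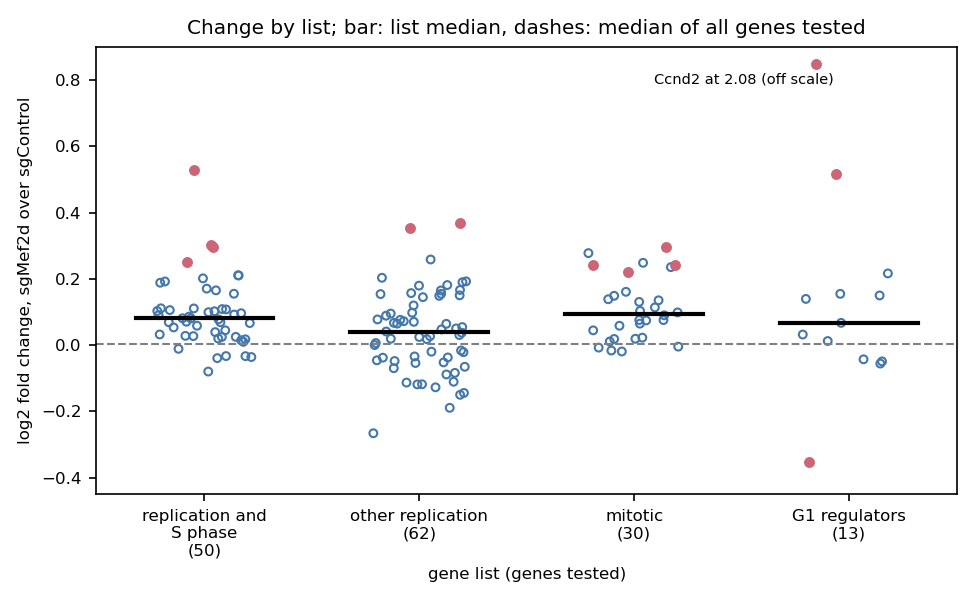
Each point is the log2 fold change (sgMef2d minus sgControl) of 1 gene, in 4 lists with the number of genes tested, and the bar is the list's median. The replication list has a median of 0.08 and the mitotic list of 0.09, and the Ccnd2 point is beyond the axis and written at its edge.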

How the data were processed

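Counts were the deposited raw read counts per gene that the authors made from STAR alignments to GRCm38 with GENCODE annotation. The submitters' processing notes name CASAVA, STAR and Subread without roles. The table lists 12934 genes, and all identifiers matched GENCODE M21 without version. The genes and lists were chosen with earlier results of these data known.

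Genes were tested with edgeR (version 4.0.16; R 4.3.3) as sgMef2d against sgControl over all 5 libraries, with TMM factors of 0.996 to 1.00, filterByExpr by group and glmQLFTest, and p-values were adjusted by Benjamini-Hochberg over 12483 genes at 0.05. The standard error is the log2 fold change divided by the root of F. Since no label says that the replicates were separate cultures, p-values measure only the spread between these samples. CPM used the TMM-scaled library sizes, and RPKM the union of exons. The test was checked on simulated counts. Alternatives were other scalings, DESeq2 (1.42.0), limma-voom (limma 3.58.1), filters, leaving out each library, a replicate block and a length and GC trend correction. Genes named with values in every library were those past the threshold and, in each role, those with the highest RPKM and the smallest p, and in other lists those past the threshold. A count of 0 would allow 3 counts, or 0.146 to 0.221 CPM. Motifs were searched in the RefSeq promoter table. Protein sequences were not analysed here.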

Additional observations from a re-analysis of the deposited data

How the results depend on the processing

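The median log2 fold change of the 50 replication genes stayed between 0.07 and 0.10 under every alternative run, and 0 of them fell past the threshold in any. Leaving out each library in turn gave 234 to 3639 genes past the threshold (992 with all libraries), 0 to 19 replication genes higher, 0 to 13 higher and 0 to 4 lower of the other replication genes, 0 to 15 mitotic genes higher, and 1 to 7 G1 regulators higher and 0 to 1 lower. Replication genes with every sgMef2d library above every sgControl library numbered 23 to 37 (37 without sgControl replicate 1, where 31.3% of all genes were so placed, and 24.8% to 29.4% of all genes without another library). Where an sgMef2d library was left out, the lone library was assumed to vary like the others. An adjusted p below 0.1 gave 1584 genes, with 4 of the other replication genes and 7 mitotic genes higher. An unadjusted p below 0.05 gave 2901 genes, with 10 replication genes, 8 other replication genes, 9 mitotic genes and 5 G1 regulators higher and 3 other replication genes lower. Removing a length and GC trend gave 1377 genes, with 7 other replication genes higher and 1 lower. The removal added Chaf1a to the replication genes past the threshold. It ended the calls of Plk1 and Cdc20 (adjusted p = 0.0738 and 0.101), with 5 mitotic genes higher in all. It also moved the log2 fold changes of E2f1 from 0.09 to 0.02, of Cdt1 from 0.16 to 0.09 and of Pola1 from 0.06 to 0.15. The sign turned for Pold2 with the length and GC trend removed (-0.041). With each library left out it ran from -0.0041 to 0.083 for Rpa1 (negative without sgMef2d replicate 1), from -0.048 to 0.13 for Tipin (negative without sgControl replicate 2 or sgMef2d replicate 1) and from -0.040 to 0.0091 for Uhrf1 (positive without sgMef2d replicate 1). With a library left out, the sign also turned for Mcm2, Gins2, Pola2, Pold1, Pole, Pole2, Rfc4, Rpa3, Rrm1, E2f3 and Slbp. No turned value passed the threshold, and the cause was not tested. For Mef2d and the genes that the rule given above picked by threshold, RPKM or p, each gene was counted once per alternative. Of these counts, 427 kept direction and call, 39 lost the call, 9 gained it and 5 turned sign. The 427 include genes that passed in no fit, and all 39 losses were of genes called with all libraries. So the tally does not measure how stable a call was. Other genes named here that gained the call without sgControl replicate 1 are not in it.

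Replicate numbers were given in the labels for both groups, and libraries of one number did not deviate together (correlation 0.0113 for number 1 and -0.000916 for number 2), so they were not treated as pairs. With a replicate block 1254 genes passed, the replication genes higher were 3 (Tyms lost, adjusted p = 0.0523), the median was 0.08 and 1 other replication gene was lower. The block also ended the calls of Aurka (0.0916) and Cdc20 (0.0747) and added Foxm1 (0.0240). In all, 3 mitotic genes were then higher. No other replication, mitotic or G1 gene named as called with all libraries lost its call. Replicate number 3 was in sgControl only, so under the block the group difference came from the libraries numbered 1 and 2. Fold changes were near those without sgControl replicate 3, as for E2f2 (0.58 in both). The losses cannot be told apart from leaving out that library.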
